A study of Homo sapiens with 9 samples.

Results

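Of the 31845 HP1γ peaks called in unstimulated breast cancer cells, 1372 (4.31%) overlapped by at least 1 base a peak called after 30 min of progestin. These 1372 kept sites are described here, beside the 30473 peaks that stood in the 0 min list alone and the 22464 peaks that stood in the 30 min list alone. The sites were chosen by the overlap of the HP1γ lists, so their HP1γ scores, widths and offsets are a description and carry no test. Positions of LSD1 and BPTF, the annotation, the DNA sequence and histone H2A were not used to choose them.

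HP1γ, the product of CBX3, is a member of the heterochromatin protein 1 family. Its chromodomain binds histone H3 methylated at lysine 9, and its chromoshadow domain binds partner proteins. Besides heterochromatin it is found in the bodies of transcribed genes, and in unstimulated breast cancer cells it has been described in a repressive complex with the demethylase LSD1 and the unliganded progesterone receptor.

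The cells were T47D-MTVL, a luminal breast cancer line that carries a stably integrated reporter under the promoter of mouse mammary tumour virus. All groups had been kept in serum-free medium before the experiment, and the treated groups received the synthetic progestin R5020 at 10 nM. HP1γ, LSD1 and BPTF, a subunit of the remodelling complex NURF, were each profiled by ChIP-seq at 30 min of R5020 and in unstimulated cells (0 min), and H2A also at 60 min. Each antibody and time had 1 library, so no value below has a replicate check or a p-value, and intervals are Wilson 95% intervals that cover the sampling of peaks alone. The depth of the HP1γ, LSD1 and BPTF libraries was unknown, the HP1γ lists started at the authors' deposited scores of 30.01 (30 min) and 30 (0 min), and all positions are on GRCh37 (hg19).

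The sequences of 10 kept sites are given first. These sites were picked by score or rank, or because they lay at progestin response genes, so they are not a typical sample of the kept sites. Each line gives 300 bases centred on the middle of the stretch shared by the 30 min and 0 min peaks. They were read from the GRCh37 reference on the plus strand, and a window ran past a shared stretch shorter than itself. Capitals mark matches, on either strand, to the motifs of forkhead factors, written TGTTTAC, of the zinc finger factors of the GATA family, written AGATAA, and of AP-1, written TGANTCA, and no matches overlapped. The first 3 sites were among the 4 with the best worse rank by score over the lists, and lay in an intron of VPS8 (an endosomal tethering factor), in an intron of ATP13A3 (a cation-transporting ATPase) and in an intron of MUC4 (a membrane mucin).
VPS8 intron (chr3:184661823-184662122): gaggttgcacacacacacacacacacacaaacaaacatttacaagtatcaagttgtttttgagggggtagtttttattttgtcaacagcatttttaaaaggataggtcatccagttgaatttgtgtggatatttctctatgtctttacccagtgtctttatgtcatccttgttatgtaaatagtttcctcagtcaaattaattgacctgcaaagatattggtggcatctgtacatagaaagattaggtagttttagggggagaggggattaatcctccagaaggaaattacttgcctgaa
ATP13A3 intron (chr3:194143584-194143883): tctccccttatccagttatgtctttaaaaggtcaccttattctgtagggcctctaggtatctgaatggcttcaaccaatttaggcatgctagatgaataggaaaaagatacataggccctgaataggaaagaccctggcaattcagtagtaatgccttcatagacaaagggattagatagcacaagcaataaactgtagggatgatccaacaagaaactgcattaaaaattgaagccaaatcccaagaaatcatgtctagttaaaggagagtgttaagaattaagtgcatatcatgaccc
MUC4 intron (chr3:195497961-195498260): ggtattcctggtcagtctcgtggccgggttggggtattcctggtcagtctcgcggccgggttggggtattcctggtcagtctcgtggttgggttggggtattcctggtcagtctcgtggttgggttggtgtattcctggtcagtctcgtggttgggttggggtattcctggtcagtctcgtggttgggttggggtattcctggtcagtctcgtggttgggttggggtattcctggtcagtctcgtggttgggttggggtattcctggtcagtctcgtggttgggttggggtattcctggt

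The MUC4 window was a tandem repeat, with 97.8% identity to itself when shifted by 32 bases, and its sampled words of 32 bases had a median of 8 copies in the genome. The next 2 sites were the highest by 0 min score within 1 kb of a protein-coding start. They lay beside DAB2IP (a Ras GTPase-activating protein) and INIP (a subunit of a single-stranded DNA binding complex).
DAB2IP promoter (chr9:124361079-124361378): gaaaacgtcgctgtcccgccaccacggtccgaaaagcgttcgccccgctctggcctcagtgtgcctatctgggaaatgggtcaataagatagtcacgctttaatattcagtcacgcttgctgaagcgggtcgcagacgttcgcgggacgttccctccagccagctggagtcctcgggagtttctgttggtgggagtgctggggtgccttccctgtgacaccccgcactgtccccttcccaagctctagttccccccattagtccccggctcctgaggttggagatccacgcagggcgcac
INIP promoter (chr9:115480781-115481080): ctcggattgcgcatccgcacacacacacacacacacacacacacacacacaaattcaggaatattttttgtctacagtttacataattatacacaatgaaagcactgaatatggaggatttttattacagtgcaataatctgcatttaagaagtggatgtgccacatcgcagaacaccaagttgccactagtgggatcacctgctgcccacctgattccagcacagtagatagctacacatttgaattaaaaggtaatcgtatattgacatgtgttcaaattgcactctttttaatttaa

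A further 3 sites were the highest by 0 min score, beyond MUC4, that met an LSD1 peak at both times. The intergenic site nearest to PCP4 on chromosome 21 was again a tandem repeat, with a shift of 74 bases, 97.3% identity and a median of 4 copies. The site nearest to CRYGS shared only 7 bases between times, so most of its window lay outside the shared stretch. The AP-1 match in that window lay past the end of the 0 min peak, within the 30 min peak alone. The window nearest to ATP11B held 2 GATA matches.
Near PCP4 (chr21:41346585-41346884): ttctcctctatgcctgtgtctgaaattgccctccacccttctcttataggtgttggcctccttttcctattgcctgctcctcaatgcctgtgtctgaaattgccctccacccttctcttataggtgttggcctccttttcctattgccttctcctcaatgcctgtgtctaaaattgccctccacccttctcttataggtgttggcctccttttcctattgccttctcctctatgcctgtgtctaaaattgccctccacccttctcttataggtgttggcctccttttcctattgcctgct
Near CRYGS (chr3:186178793-186179092): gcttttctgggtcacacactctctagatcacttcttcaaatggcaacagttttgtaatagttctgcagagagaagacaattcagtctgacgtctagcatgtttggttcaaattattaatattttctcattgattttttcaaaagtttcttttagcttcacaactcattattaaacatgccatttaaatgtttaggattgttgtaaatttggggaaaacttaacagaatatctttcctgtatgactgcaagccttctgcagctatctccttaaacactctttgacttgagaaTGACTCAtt
Near ATP11B (chr3:182464870-182465169): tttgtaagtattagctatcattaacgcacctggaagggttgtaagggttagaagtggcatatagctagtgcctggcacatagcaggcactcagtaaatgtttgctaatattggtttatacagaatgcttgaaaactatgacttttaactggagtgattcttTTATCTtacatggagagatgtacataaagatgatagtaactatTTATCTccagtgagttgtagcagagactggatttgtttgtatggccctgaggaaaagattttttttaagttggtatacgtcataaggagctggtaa

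The last 2 sites lay at the progestin response genes that held a kept peak. BCL6 encodes a transcriptional repressor, and its window held a forkhead match. TIPARP encodes a mono-ADP-ribosyltransferase, and its site lay in an annotated exon, 14.5 kb from the nearest start.
Near BCL6 (chr3:187465997-187466296): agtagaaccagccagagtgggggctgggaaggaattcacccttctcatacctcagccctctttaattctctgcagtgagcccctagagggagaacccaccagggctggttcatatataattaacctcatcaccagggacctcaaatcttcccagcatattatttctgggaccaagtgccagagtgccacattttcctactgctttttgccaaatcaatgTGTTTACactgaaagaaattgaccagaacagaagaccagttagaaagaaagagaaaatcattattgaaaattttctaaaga
TIPARP (chr3:156413334-156413633): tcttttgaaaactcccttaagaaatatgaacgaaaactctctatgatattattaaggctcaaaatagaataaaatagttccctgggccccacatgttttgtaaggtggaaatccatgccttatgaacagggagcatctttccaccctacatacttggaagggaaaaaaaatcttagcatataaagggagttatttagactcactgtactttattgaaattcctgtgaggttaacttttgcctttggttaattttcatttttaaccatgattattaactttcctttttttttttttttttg

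The kept pairs coincided in part. The shared stretch had a median of 324 bases (range 1 to 1021), and 957 of the 1372 kept peaks shared at least 50% of the shorter peak. At least 50% of both peaks was shared in 713, and the whole of the shorter peak in 296. The centre of the 30 min peak lay a median of 208 bp from that of the 0 min peak, with no common direction (median of the signed distance -3 bp). Of the kept peaks, 1354 met 1 peak of the 30 min list and 18 met 2. At the edge of the rule, 21 kept peaks shared 1 to 10 bases, and 16 of the peaks in the 0 min list alone ended within 10 bases of a 30 min peak. The 0 min peaks outside the rule lay a median of 20.1 kb from the nearest 30 min peak.

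**Figure D1:**
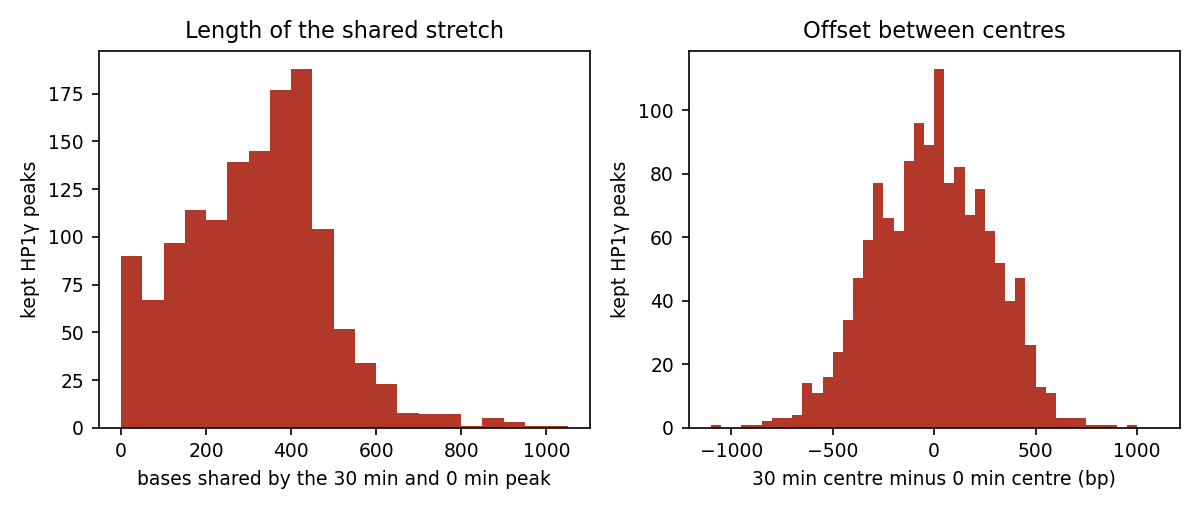
Length of the shared stretch in bases (left) and distance from the 0 min centre to the 30 min centre in bp (right), as numbers of kept HP1γ peaks. The shared stretch was spread around the median of 324 bases with a tail down to 1 base, and the offsets were spread on both sides of 0.

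Kept peaks were narrower at 30 min, with a median of 461 bp, against 535.5 bp at 0 min. The 30 min peak was the narrower in 888 pairs and the wider in 480. The lists differed in the same direction outside the kept sites, with a median width of 441 bp in the 30 min list alone and 466 bp in the 0 min list alone. The share kept was 7.96% in the widest of 4 width classes (559 to 2621 bp) and 2.68% in the narrowest (227 to 429 bp).

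The deposited score, whose definition is not given in the sources used here, ranked the same site differently in each list. Over the 1372 pairs, scores at 30 and 0 min had a Spearman correlation of 0.03 (Pearson 0.05), given as a description of sites that share their libraries. In the top 10% of the 30 min list stood 229 kept peaks, in that of the 0 min list 285, and in both 61. The share kept was 8.96% among the 0 min peaks with scores of 50.57 and above and 2.54% among those of 30.91 and below. The site near PCP4 had the highest 0 min score of the kept sites, rank 3 in that list, and stood at rank 1090 in the 30 min list. A kept site in an intron of KCNMB3, a potassium channel subunit gene, ranked 23321 at 30 min and 19 at 0 min. The VPS8 site ranked 37 at 30 min and 122 at 0 min, the best worse rank of all, and the site in ATP13A3 ranked 250 at 30 min and 226 at 0 min.

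**Figure D2:**
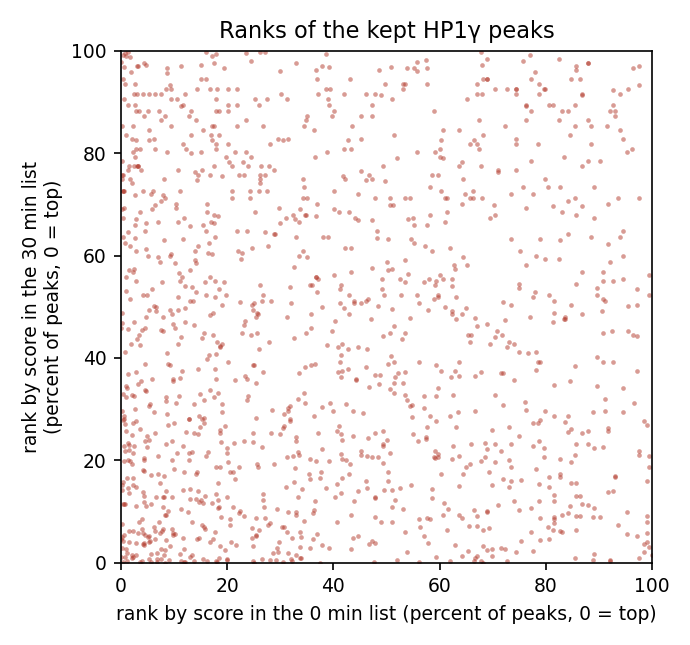
Rank by score of the 1372 kept HP1γ peaks in the 30 min list (vertical axis) and the 0 min list (horizontal axis), as percent of each list with 0 at the top of the list. Points were denser towards low values on the 0 min axis, and 61 sites lay in the top 10% of both lists.

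The LSD1 lists, which the rule did not use, met kept HP1γ sites more often than other HP1γ peaks. LSD1, the product of KDM1A, removes methyl groups from lysine 4 of histone H3. Of the kept sites 129 (9.40%, interval 7.97% to 11.1%) met an LSD1 peak of 30 min, against 866 (2.84%, interval 2.66% to 3.03%) of the peaks in the 0 min list alone and 3.12% of the whole 0 min list. An LSD1 peak of 0 min met 265 kept sites (19.3%, interval 17.3% to 21.5%), against 2227 (7.31%, interval 7.02% to 7.61%) of the peaks in the 0 min list alone and 7.83% of the whole list. Among the HP1γ peaks of the 30 min list alone, the shares were 2.71% for LSD1 of 30 min and 6.31% for LSD1 of 0 min. The LSD1 peak reached the shared stretch itself in 109 of the 129 sites at 30 min and in 241 of the 265 at 0 min.

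LSD1 stood at both times on 36 kept sites (2.62%), against 144 (0.473%) of the peaks in the 0 min list alone and 0.565% of the whole list. In 34 of the 36 the LSD1 peaks of the times overlapped each other, and in 27 both lay on the shared HP1γ stretch. A majority of the kept sites, 1014 (73.9%), met no LSD1 peak at either time, against 27524 (90.3%) of the peaks in the 0 min list alone. Read from the LSD1 side, 42 of the 270 LSD1 peaks of 0 min that met a kept HP1γ site recurred in the LSD1 list of 30 min (15.6%, interval 11.7% to 20.4%). Of the 2224 LSD1 peaks of 0 min that met an HP1γ peak of the 0 min list alone, 155 recurred (6.97%, interval 5.98% to 8.10%). The share that recurred was not computed for the whole LSD1 list of 0 min, nor split by width, density or chromosome. Kept sites had a median of 20 other LSD1 peaks of 30 min within 500 kb, and peaks of the 0 min list alone 13. The part of this density in the recurrence was not tested.

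Width and local density moved with these overlaps, and their part in the result was not tested beyond the following splits. In each of the 4 width classes the LSD1 shares were higher in kept sites, and in the narrowest they were 6.94% (15 of 216) at 30 min and 13.0% (28 of 216) at 0 min. The other 0 min peaks of that class had 1.80% and 4.66%. In the second class, of 430 to 468 bp, the interval of the kept share for LSD1 of 30 min (2.53% to 7.86%) reached that of the other peaks (1.98% to 2.65%). In the densest of 5 classes of local LSD1 density at 0 min (49 to 153 LSD1 peaks within 500 kb), LSD1 of 0 min met 28.3% of kept sites and 17.0% of the others. In the sparsest class (0 to 10 LSD1 peaks) it met 9.52% of 126 kept sites and 1.57% of the others. At 8 to 11 LSD1 peaks of 30 min within 500 kb, the intervals for LSD1 of 0 min overlapped. There it met 7.23% of kept sites (interval 4.18% to 12.2%) and 4.50% of the others (interval 3.99% to 5.06%). For LSD1 of 30 min some intervals overlapped, as at 17 to 21 LSD1 peaks of 30 min within 500 kb, with 5.22% of kept sites (interval 3.01% to 8.90%) and 3.35% of the others (interval 2.89% to 3.87%). At 20 to 26 HP1γ peaks of 30 min within 500 kb it met 11 of 262 kept sites (interval 2.36% to 7.36%) and 3.00% of the others (interval 2.61% to 3.45%). On chromosome 3 the LSD1 shares were 14.3% at 30 min and 30.8% at 0 min in kept sites, and 6.87% and 17.5% in the others. Away from chromosome 3, LSD1 of 0 min met 12.9% of kept sites and 5.63% of the others. Of the 12 chromosomes with at least 20 kept sites, 12 had a higher share of LSD1 of 0 min in kept sites and 10 a higher share of LSD1 of 30 min, the exceptions being chromosomes 5 (1 of 79 kept sites) and 17 (2 of 77).

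**Figure D3:**
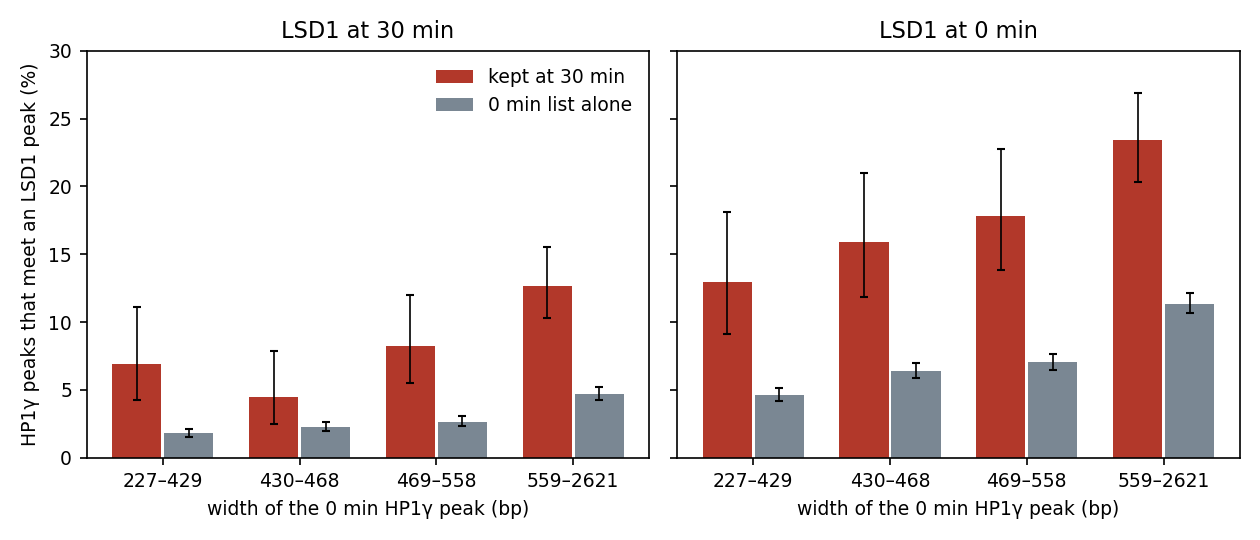
Percent of HP1γ peaks of the 0 min list that met an LSD1 peak of 30 min (left) or 0 min (right), by the width of the HP1γ peak in bp, for peaks kept at 30 min and peaks in the 0 min list alone, with Wilson 95% intervals over peaks. Kept peaks had the higher share in each of the 4 width classes at both times, with overlapping intervals for LSD1 of 30 min at 430 to 468 bp.

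BPTF overlapped few kept sites. The authors' lists hold BPTF peaks displaced by hormone and BPTF peaks recruited by it. Displaced BPTF peaks met 20 kept sites (1.46%, interval 0.946% to 2.24%), against 213 (0.699%, interval 0.611% to 0.799%) of the peaks in the 0 min list alone and 0.732% of the whole list. The BPTF shares were not split by width, local density or chromosome, which differed between kept sites and the others, and the part of these was not tested. Recruited BPTF peaks met 5 kept sites (0.364%, interval 0.156% to 0.850%), against 0.285% of the others and 0.289% of the whole list, with overlapping intervals. The highest-scored kept site with displaced BPTF lay in an intron of PEX5L, a regulator of pacemaker channels (score 49.08 at 30 min and 85.53 at 0 min). The highest with recruited BPTF lay 0.111 kb from a start of RAB3C, a GTPase of vesicle transport (score 30.1 at 30 min and 72.68 at 0 min). A kept site in an intron of MECOM, a zinc finger oncogene, met recruited BPTF too.

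Kept sites were concentrated on chromosome 3. That chromosome held 490 of them (35.7%, interval 33.2% to 38.3%), against 14.1% of the peaks in the 0 min list alone and 15.1% of the whole list. On chromosome 3, 10.2% of the 0 min peaks were kept (interval 9.38% to 11.1%), and on the other chromosomes 0% to 4.80%. Chromosome 17 had the next highest share, 4.80% of 1604 peaks, and chromosomes 19, 22 and X, with 113, 70 and 94 peaks, had no kept site. With so few peaks, the intervals of these zeros reached 3.29%, 5.20% and 3.93%. Within chromosome 3 the long arm had 470 kept of 4005 (11.7%) and the short arm 20 of 795 (2.52%). Beyond position 168000001, a limit chosen after the values were seen, 402 of 2412 were kept (16.7%).

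The share kept moved with the local density of 30 min peaks, and the part of density in the result was not tested. Chromosome 3 had 18.9 HP1γ peaks per Mb at 30 min, its long arm 29.3, its short arm 7.57 and the stretch beyond position 168000001 62.2. Over 23 chromosomes, which share the libraries, the share kept and the 30 min density had a Spearman correlation of 0.819. In 5 classes of the number of other 30 min peaks within 500 kb, the share kept was 1.63% (0 to 9 peaks), 3.19%, 3.33%, 3.98% and 9.90% (27 to 99 peaks). At 10 to 15 neighbours chromosome 3 had 1.92% and the other chromosomes 3.29%, at 16 to 19 neighbours 1.15% and 3.44%, and at 20 to 26 neighbours 4.13% and 3.97%, each with overlapping intervals. In the densest class, chromosome 3 had 452 kept of 3164 (14.3%, interval 13.1% to 15.5%) and the other chromosomes 153 of 2945 (5.20%, interval 4.45% to 6.06%). That class spans 27 to 99 neighbours, and density within it was not matched between chromosome 3 and the other chromosomes.

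**Figure D4:**
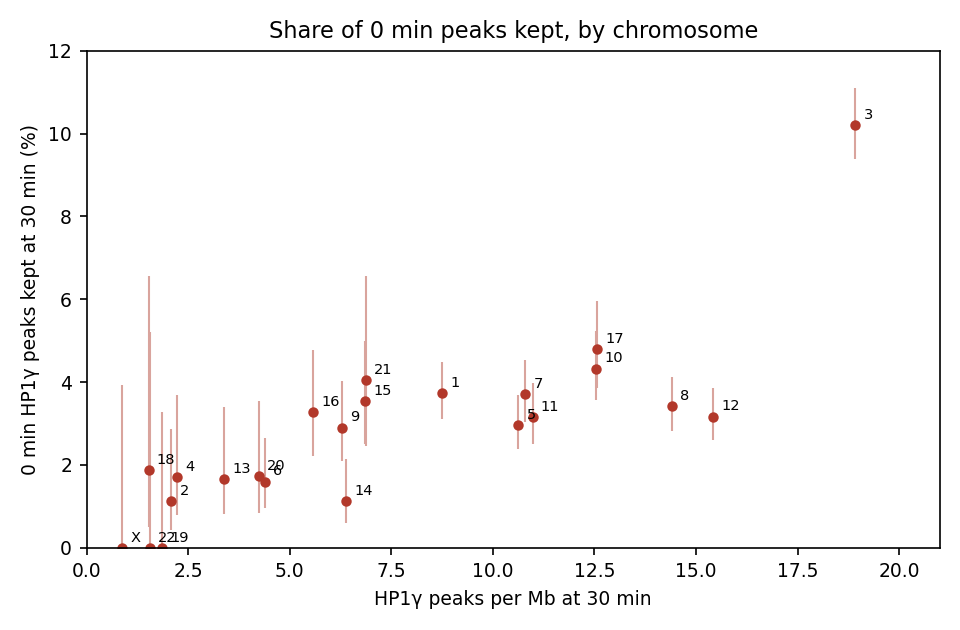
Percent of 0 min HP1γ peaks kept at 30 min (vertical axis, with Wilson 95% intervals over peaks) against HP1γ peaks per Mb in the 30 min list (horizontal axis), with 1 point per chromosome. Chromosome 3 had both the highest density, 18.9 peaks per Mb, and the highest share, 10.2%.

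**Figure D5:**
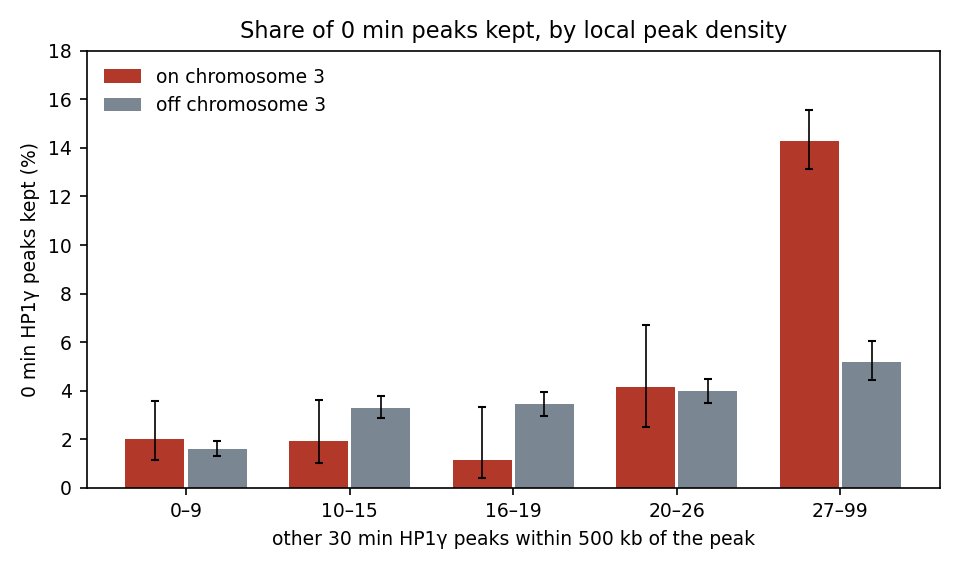
Percent of 0 min HP1γ peaks kept at 30 min, by the number of other 30 min HP1γ peaks within 500 kb of the peak, on chromosome 3 and on the other chromosomes, with Wilson 95% intervals over peaks. The intervals of chromosome 3 and the other chromosomes lay apart only in the densest class, at 14.3% and 5.20%. That class spans 27 to 99 neighbours, and density within it was not matched between chromosome 3 and the others.

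In steps of 1 Mb, kept sites fell in 603 windows, 353 of them with a single site. Of the 20 windows with at least 10 kept sites, 19 were on chromosome 3. The densest, from 177000001 to 178000000, held 32 kept sites among 104 peaks of 0 min. It met only the gene KCNMB2, whose body begins at position 177990720, so most of the window lay outside that gene. The windows starting at 191000001, 174000001, 182000001 and 173000001 followed with 24, 22, 21 and 21 kept sites.

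The genes with most kept sites were long genes of chromosome 3. NAALADL2, a relative of the glutamate carboxypeptidase gene, held 26 kept of 120 peaks in 1372 kb. NLGN1, the synaptic adhesion protein neuroligin 1, held 18 of 86, and FGF12, an intracellular fibroblast growth factor homologue that binds sodium channels, held 13 of 56. KCNMB2, a subunit of calcium-activated potassium channels, held 12 of 65, of which the overlapping gene ENSG00000275163 shares its 8. PEX5L held 7 of 22, the kinase gene TNIK 7 of 39 and MECOM 7 of 54. The adhesion gene CADM2 held 6 of 34, the potassium channel gene KCNAB1 6 of 39 and the readthrough gene IQCJ-SCHIP1 6 of 49. Per 100 kb of gene, the number of kept sites was lowest in CADM2 (0.538) and highest in PEX5L (2.89) among these genes. Of the 5374 protein-coding genes that held any 0 min peak, 445 held a kept site, 353 of them a single one and 31 of them 3 or more.

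Relative to genes, the kept sites were compared with the other peaks over the whole genome and away from chromosome 3. Within 1 kb of a protein-coding start lay 74 (5.39%, interval 4.32% to 6.72%), against 4.26% of the peaks in the 0 min list alone (interval 4.04% to 4.50%) and 4.31% of the whole list. In protein-coding gene bodies lay 623 (45.4%, interval 42.8% to 48.1%), against 47.5% of the others and 47.5% of the whole list, and 53.4% lay between genes, against 51.7%. Within 5 kb of a start the order turned, with 11.4% of kept sites and 12.3% of the others, and so it did for scores of at least 50 in both lists, with 4.76% of 63 kept sites and 5.44% of the others within 1 kb. Away from chromosome 3 the share within 1 kb was 6.58% in kept sites (interval 5.12% to 8.41%) and 4.48% in the others, and the share in gene bodies was 42.4% (interval 39.2% to 45.7%) and 47.3%. The promoter site of EHF, an epithelial ETS factor, had scores of 72.08 at 30 min and 67.19 at 0 min, and the site of ZNF740, close to a start of CSAD, had 66.27 at 30 min and 67 at 0 min. Each of these pairs nearly coincided, with centres 45 bp and 23 bp apart. Promoter sites of MAP3K13, a stress kinase gene, and of CCDC39, a gene of cilia, were also among the 10 promoter sites with the highest 0 min score.

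Genes were also counted by pathway list where the body or the 5 kb on either side held a kept site. Of the 6438 protein-coding genes with any 0 min HP1γ peak there, 535 held a kept one. Of 12 progestin response genes with a peak, 2 held a kept site, BCL6 and TIPARP. The BCL6 site lay 2.634 kb from the gene's start, with scores of 49.41 at 30 min and 63.46 at 0 min, shared all 611 bases of the 0 min peak and had its centres 3 bp apart. The TIPARP site had scores of 61.11 at 30 min and 48.81 at 0 min, shared all 932 bases of the 0 min peak, had its centres 12 bp apart and met LSD1 at 0 min. Both genes lie on chromosome 3. None of 6 estrogen response genes and none of 6 genes for HP1, LSD1 and CoREST partners with a peak held a kept site. Beside 535 of 6438 genes, lists of 12 and 6 genes with a peak were too small to show a difference.

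Among cell identity genes, 1 of 12 luminal markers with a peak held a kept site, the membrane mucin gene MUC1, where the peaks shared 65 bases. Of 9 basal and mesenchymal markers 2 did, TP63, the p63 regulator of basal epithelium, with 3 kept sites, and TWIST1, a transcription factor of mesenchymal cells, with 1. The 3 TP63 sites lay on chromosome 3 beyond position 168000001, where 16.7% of the 0 min peaks were kept. Of 13 genes for poly-ADP-ribose and NAD enzymes 1 held a kept site, PARP8. Lists of 9 to 13 genes with a peak were again too small to show a difference from all genes with a peak. Larger families had 14 of 137 zinc finger genes with a peak, 3 of 46 olfactory receptor genes and 12 of 49 protocadherin genes. Of 5 mucin genes with a peak 2 held a kept site, MUC1 and MUC4, and MUC4 lies in the same stretch of chromosome 3 as TP63. The 12 protocadherin genes overlap each other in part, since a single site of the PCDHG cluster counts for 9 of them.

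In base composition the kept sites lay between the lists. Their median GC content was 40.6%, against 38.9% in the 30 min list alone and 42.1% in the 0 min list alone. The median on chromosome 3 was 39.2% in kept sites and 40.6% in the 0 min list alone, and away from it 41.7% and 42.4%.

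Kept sites lay in DNA that recurs in the genome more often than peaks of the 0 min list alone, though not on chromosome 3. In each central window of 500 bp, 19 words of 32 bases were sampled, and a window with under 50% unique words was counted as recurrent. There were 119 such kept sites (8.67%, interval 7.30% to 10.3%), against 7.83% in the 30 min list alone, 4.98% in the 0 min list alone (interval 4.74% to 5.23%) and 5.14% of the whole 0 min list. Over 56706 tiles of 500 bp sampled from the genome the share was 9.63%. Away from chromosome 3 it was 12.4% of kept sites and 5.44% of the others, and on chromosome 3 2.04% and 2.16%. It was 11.9% among kept sites that shared over 300 bases, 4.14% among those that shared 101 to 300, and 6.33% among those that shared 1 to 100. Among recurrent kept sites, reads could come from any of the copies, and how such reads were placed is not given in the sources used here. Of the recurrent sites, LSD1 of 30 min met 19 of 119 kept ones (16.0%) and 6.46% of the others, and LSD1 of 0 min met 29 (24.4%) and 5.87%. Of the sites with at least 50% unique words, LSD1 of 30 min met 8.78% of 1253 kept ones and 2.65% of the others, and LSD1 of 0 min met 18.8% and 7.38%.

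Tandem repeats and the borders of assembly gaps held few kept sites in number. A tandem repeat, counted where the central 500 bp matched themselves by at least 80% at a shift of 10 to 200 bases, was present in 14 kept sites (1.02%, interval 0.609% to 1.71%). The share was 0.303% in the 30 min list alone, 0.259% in the 0 min list alone (interval 0.208% to 0.323%), 0.292% in the whole 0 min list and 0.102% of genome tiles. All 14 shared over 300 bases between times, and 13 lay away from chromosome 3. Within 100 kb of an assembly gap lay 53 kept sites (3.86%, interval 2.97% to 5.02%), and 1 of the 53 was on chromosome 3. The share was 2.01% in the 30 min list alone, 1.32% in the 0 min list alone and 1.43% in the whole 0 min list.

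Motifs of hormone receptors and lineage factors were counted in the central windows of 500 bp. The progesterone response element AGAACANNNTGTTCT, read on both strands, was absent from the central 500 bp of the kept sites (0 of 1372, where the limit of 3 counts allows a share of up to 0.219% and the Wilson interval reaches 0.279%), as was the estrogen response element GGTCANNNTGACC. In the 0 min list alone they stood in 4 (0.0131%) and 20 (0.0656%) of 30473 peaks, so the number of kept sites was too small to show a difference. Forkhead matches stood in 8.82% of kept sites (interval 7.43% to 10.4%) and 7.40% of the 0 min list alone, beside 7.70% of all genome tiles. GATA matches stood in 31.9% and 30.6%, beside 32.6% of tiles, and AP-1 matches in 16.5% and 16.2%, beside 15.0% of tiles.

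Over the genes that held a kept site, the H2A level moved little. The authors' RPKM per gene was compared between times within a gene, on the log2 scale with a pseudocount of 0.05. At 30 min over 0 min, 386 genes with a kept site had a median change of -0.01 (5th to 95th percentile -0.27 to 0.28), with 184 higher and 202 lower. The 91 of them on chromosome 3 had a median of 0.05 (58 higher, 33 lower). The 295 away from it had a median of -0.04 (126 higher, 169 lower). Genes with other HP1γ peaks alone had a median of -0.07, genes with no 0 min peak -0.17 and all 19709 genes -0.14. None of the 386 genes changed by more than 0.5 either way, while 4 of the 4472 genes with other peaks alone were past it upwards (0.0894%) and 3 downwards (0.0671%). At those shares 386 genes were too few to show a difference from genes with other peaks alone. Over all genes the shares were 0.345% upwards and 1.99% downwards, and 389 of the 392 genes past it downwards held no 0 min peak. At 60 min over 0 min the median was 0.01 for genes with a kept site and -0.03 for all genes, none of the 386 genes was past 0.5, and 0.249% of all genes were past it upwards and 0.639% downwards.

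GC content and length moved with these medians. Genes with a kept site had a median length of 121 kb and 40.8% GC, genes with other peaks alone 63.9 kb and 42.1%, and genes without a peak 15.8 kb and 47.0%. With the GC trend over all genes taken off, the medians at 30 min over 0 min were -0.0031 for genes with a kept site, -0.0040 for genes with other peaks alone and 0.0016 for genes without a peak. For genes with a kept site they were then -0.0038 on chromosome 3 and -0.0030 away from it. Among genes of at least 100 kb, a class chosen after the values were seen, the medians before that step were 0.01 with a kept site, 0.01 with other peaks alone and 0.02 with no peak. FGF12 had 8.818 RPKM at 0 min, 9.673 at 30 min and 9.211 at 60 min. MUC4 had 24.86 RPKM at 0 min, 20.54 at 30 min and 22.53 at 60 min. The 30 min value was thus the highest of the 3 for FGF12 and the lowest for MUC4, whose log2 changes at 30 min over 0 min, 0.13 and -0.27, both came to 0.01 with the GC trend taken off. NAALADL2 held only 6 kept sites within the shorter bounds that the H2A table gives it.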

How the data were processed

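ChIP-seq reads were aligned to GRCh37 (hg19). The submitters' processing notes name the tools Bowtie 1.0.0 and HOMER 4.7.2. The HP1γ and LSD1 peak lists give a position and a score as deposited by the authors. Peak names follow the pattern of MACS, but how the score is defined, which version of the caller was run and against which control are not given in the sources used here, so scores were only ranked within a list. BPTF peaks were deposited as positions in a displaced and a recruited list. H2A was deposited as RPKM per protein-coding gene, counted with HOMER over GENCODE version 18, per the file headers. These RPKM values carry the number of transcripts of a gene, so they were compared within a gene.

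An overlap of 1 base or more counted as shared, and shares have Wilson 95% intervals. Starts, bodies, exons and introns came from GENCODE version 44 lifted to GRCh37, with promoters within 1 kb of a protein-coding start. GC content, motifs, the uniqueness of words and self-identity at shifts came from the reference. H2A changes used genes whose mean reached 0.1 RPKM, a pseudocount of 0.05 and a change of 0.5 on the log2 scale as the limit, with a GC trend over 20 bins as an alternative. The overlap, word and motif searches were tested on simulated data. Python 3.11.15, pandas 2.3.3, NumPy 2.4.6, SciPy 1.17.1, numba 0.67.0 and pysam 0.24.0 were used.

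The sites and gene lists were chosen with earlier results of these data known. The named sites were the 10 highest by 0 min score, by the worse of both ranks, with LSD1 at both times, at promoters and with BPTF, and up to 3 per gene list. The named genes were the 10 with most kept sites. The sequences were the first of 3 of these sets, less 2 that are not reported here. The density classes, the division of chromosome 3, the uniqueness and tandem repeat measures, and the BCL6 and TIPARP sequences were added after values were seen, and windows chosen for a motif alone were not printed.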

Additional observations from a re-analysis of the deposited data

How the results depend on the processing

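No paired analysis was possible because each group had 1 sample, and for the same reason no replicate could be left out. Of 41 alternatives, 20 kept their sign and stayed within the interval of the value or, for the number of kept sites, within 1.5 times of it. Sharing 50% of both peaks left 713 kept sites, a score of at least 50 in both lists 63, and leaving out chromosome 3 882. The share with LSD1 of 30 min, 9.40%, became 19.0% with scores of at least 50, 6.69% without chromosome 3, 6.78% with 50% of the shorter peak shared with LSD1, 5.76% with the HP1γ centre inside the LSD1 peak and 6.48% in the 2 middle width classes. The share with LSD1 of 0 min, 19.3%, became 30.2%, 12.9%, 15.5%, 14.8% and 17.0% in the same order. In all 14 alternatives for these 2 shares kept sites stood above the other 0 min peaks. The promoter share became 11.4% within 5 kb of a start, against 12.3% in the other 0 min peaks, so its order turned, as it did within 1 kb with scores of at least 50 (4.76% against 5.44%). The share in gene bodies became 42.4% without chromosome 3, against 47.3% in the other 0 min peaks, and 50.3% with 5 kb on each side. The median GC content became 39.5% with scores of at least 50, 41.7% without chromosome 3 and 41.0% over the central 500 bp. The share on chromosome 3 became 55.6% with scores of at least 50. The median H2A change turned to 0.00047 when 50% of the shorter HP1γ peak had to be shared. The causes of these shifts were not tested. The unknown depth of the HP1γ, LSD1 and BPTF libraries limits what absence from a list shows.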
